A study of Arabidopsis thaliana with 24 samples.

Results

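The 4 genes described here are AUR1 (AT4G32830) and AUR2 (AT2G25880), which encode Aurora kinases, PRL (AT4G02060), which encodes MCM7, and ICU2 (AT5G67100), which encodes the catalytic subunit of DNA polymerase alpha. They were chosen by name, and each is read by 1 probe set that the array's annotation gives to no other gene, among 13513 such probe sets (13287 genes) of 22810 on the array. The material was Arabidopsis thaliana of the wild-type accession Col-0, with no mutation and no treatment in the labels. Whole siliques, the pods with the developing seeds inside, were collected at stages 3, 4 and 5, and seeds taken out of the siliques at stages 6, 7, 8, 9 and 10, with 3 Affymetrix ATH1 arrays in each of the 8 groups and 24 in all. In the published description of this atlas the stages follow the embryo from globular and heart forms in stage 3 through the torpedo and walking-stick forms to the green cotyledon embryo of stage 10. Growth conditions, soil under long days, are labelled for stage 3 alone. The labels do not say whether arrays of 1 group came from different plants, and p-values therefore refer to the spread among these samples, part or all of which may be technical.

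Before a plant cell divides it copies its DNA. MCM7 is 1 of the subunits of the MCM helicase, which is loaded on replication origins and unwinds the DNA, and PRL (PROLIFERA) is known in Arabidopsis for its expression in dividing cells. DNA polymerase alpha works with a primase to start each new DNA strand, and ICU2 (INCURVATA2) supplies its catalytic subunit. Aurora kinases act later, in mitosis: plants have alpha Auroras, AUR1 and AUR2, which lie on the spindle and guide the plane of division, and a beta Aurora, AUR3, which lies at centromeres. In a seed, cell division belongs to the early growth of embryo, endosperm and seed coat, and the embryo later fills with reserves and dries with little further division.

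The deposited values are signal intensities in arbitrary units, scaled so that the trimmed mean of every array is close to 100. A signal of 1 probe set cannot be set against that of another, because probes differ in brightness, so levels are compared here within a gene and only changes are compared between genes. In these mixed tissues, fewer dividing cells and less RNA per cell cannot be told apart. AUR1 and AUR2 are close relatives, and how far each probe set also reads the other transcript was not tested. A change is given on the scale log2(signal + 6.97), which shrinks the changes of dim genes, and a gene is said to rise or fall where limma gave an adjusted p under 0.05 together with a change of at least 2-fold.

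The array measures moved with the stage as well. The share of an array's total signal in its 10 brightest probe sets averaged 1.26% in siliques stage 4 and 3.43% in seeds stage 9, and the median signal averaged 42.2 and 33.5 there. The actin control's ratio of 3′ to 5′ signal was 4.09 ± 0.288 (SD, n = 3) in siliques stage 3 and 2.17 ± 0.140 in seeds stage 10. A control for 25S ribosomal RNA was at most 127 in siliques but exceeded 1000 on 6 arrays of seeds (arrays A and C of stage 8, A and D of stage 10, A of stage 6 and C of stage 7). Array B of stage 10 was only just under that limit, at 933, where seeds stage 9 lay between 109 and 110.5. The part of these measures in the results was not tested beyond the values given below without those 6 arrays. Those values keep array B of stage 10, so they do not show stage 10 free of this signal.

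PRL, the helicase gene, had its highest mean in siliques stage 4 and was lowest in the last 3 seed stages. Its signal read 101, 103 and 106 on the 3 arrays of siliques stage 3, 164, 143 and 145 in stage 4, and 121, 112 and 110.0 in stage 5. In seeds it read 113, 111 and 93.7 at stage 6, 61.0, 60.1 and 56.9 at stage 7, and 37.1, 27.9 and 25.7 at stage 8. It then read 26.6, 14.6 and 21.7 at stage 9 and 31.0, 29.1 and 23.4 at stage 10. All 3 arrays of siliques stage 4 lay above the other 21, the lowest of them at 143 against 121 for the highest of the rest, and each of the last 3 seed stages overlapped the others. The share of all probe sets whose highest or lowest group stands apart in this way was not counted, here or for the other 3 genes. The mean of seeds stage 10, 27.9 ± 3.96 (SD, n = 3), was 18.5% of the siliques stage 4 mean of 151 ± 11.7.

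ICU2, the polymerase gene, was likewise highest in siliques stage 4 and low from seeds stage 8 on, with a dim signal throughout. Its signal read 23.7, 16.9 and 22.4 in siliques stage 3, 24.9, 26.9 and 25.6 in stage 4, and 20.7, 16.1 and 20.9 in stage 5. In seeds it read 19.3, 20.185 and 17.7 at stage 6, 10.9, 12.7 and 11.2 at stage 7, and 5.10, 2.84 and 2.48 at stage 8. The last readings were 0.926, 6.20 and 0.708 at stage 9 and 1.73, 1.99 and 10.1 at stage 10. Siliques stage 4 again lay above all other arrays, though by only 24.9 against 23.7, and stages 8 to 10 overlapped. Testing required a signal above the array's 40th percentile on 3 or more arrays, and ICU2 had that on 3 of 24, all of them siliques stage 4. It therefore entered the tests only through its highest group, so that its standing apart there is no support for a peak. Its low readings cannot be told from background because no detection calls were used here.

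AUR1, an alpha Aurora, also had its highest mean in siliques stage 4 and its lowest means in the last 3 seed stages. Its differences between siliques stage 4 and siliques stages 3 and 5 did not pass the adjusted p. Its signal read 149.5, 142 and 145 in siliques stage 3, 175, 181 and 177 in stage 4, and 153, 142 and 141 in stage 5. In seeds it read 123, 108 and 105 at stage 6, 66.5, 65.8 and 65.6 at stage 7, and 36.6, 30.5 and 23.4 at stage 8. It then read 11.8, 22.1 and 29.9 at stage 9 and 27.8, 16.3 and 28.7 at stage 10. The siliques stage 4 arrays, at 175 or more, stood above the other 21, which reached 153, and the mean of seeds stage 10 was 13.6% of that of siliques stage 4. From seeds stage 6 to 7 and from 7 to 8 the groups did not overlap, while stages 8, 9 and 10 did. Of all probe sets 26.4% were lower without overlap from stage 6 to 7, and the share from 7 to 8 is not given here.

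AUR2, the other alpha Aurora, kept a much larger share of its signal in late seeds. Its signal read 113, 112 and 129 in siliques stage 3, 96.2, 98.6 and 110.3 in stage 4, and 86.3, 90.7 and 85.5 in stage 5. In seeds it read 87.7, 98.7 and 88.9 at stage 6, 82.2, 80.9 and 84.4 at stage 7, and 82.0, 108 and 101 at stage 8. It then read 51.1, 44.3 and 55.3 at stage 9 and 56.5, 74.9 and 72.5 at stage 10. The highest group was siliques stage 3, whose lowest array (112) was just above the highest of the others (110.3, in siliques stage 4), and seeds stage 9 was below all other arrays, at most 55.3 against 56.5. The mean of seeds stage 9 was 42.6% of the highest group mean, and that of stage 10 was 57.7%.

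**Figure D1:**
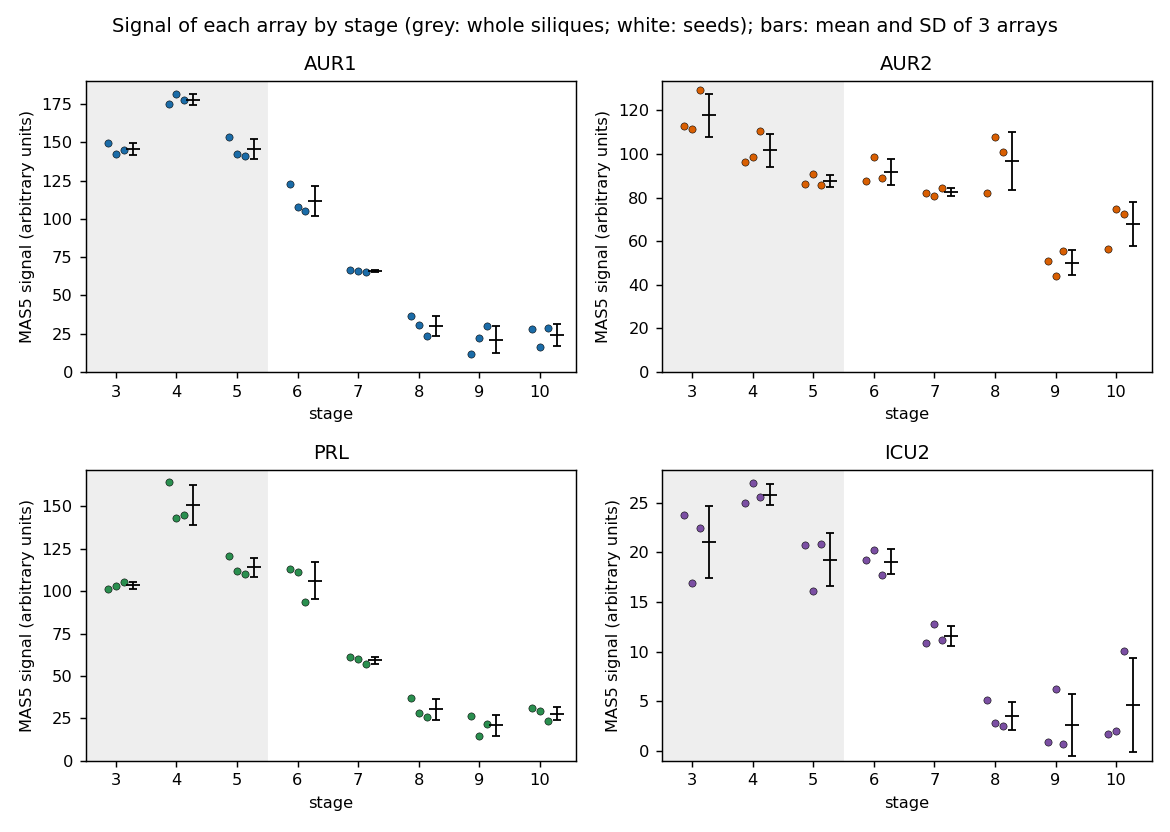
Signal of each gene (linear scale, arbitrary units, each panel with its own axis) by stage, with 1 point per array and beside the points a bar of the mean and SD of the 3 arrays; whole siliques (stages 3 to 5) have a grey background. AUR1, PRL and ICU2 are highest in siliques stage 4 and low from seeds stage 8 on, while AUR2 is lowest in seeds stage 9 at 42.6% of its highest mean.

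The range of the group means differed accordingly. The highest group mean was 8.37 times the lowest for AUR1, 7.19 times for PRL and 2.35 times for AUR2, and the lowest group was seeds stage 9 for each of them. The lowest means of AUR1 and PRL are dim as well. In seeds stage 9 AUR1 was above its array's 40th percentile on 2 of 3 arrays and PRL on 1, while AUR2 was on all 3. In seeds stage 10 AUR1 and PRL were above it on 2 arrays each. The ratios of AUR1 and PRL are therefore uncertain in size. No such ratio is given for ICU2, whose low readings cannot be told from background. limma's moderated F test over the 8 groups gave adjusted p = 1.5e-14 for AUR1, 2.5e-15 for PRL and 3.1e-08 for AUR2; it is not given for ICU2, which was tested only because of its highest group. The same test passed for 94.9% of the 16967 probe sets tested, so that variation over the series was common to nearly all of them. Of all pairs of groups, AUR2 reached 2-fold on the scale with the offset only between its highest and its lowest: from siliques stage 3 to seeds stage 9 it fell by 1.13 ± 0.11 (adjusted p = 1.3e-09, limma), where 26.6% of all probe sets were called lower. This pair was picked by its values, so the p-value is no independent support. Without the offset, the mean signal of AUR2 in seeds stage 9 was 0.494 of that in siliques stage 4.

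Few neighbours in each gene's order of levels passed the adjusted p. The test took each gene's spread over all groups together. A step that did not pass can therefore still exceed the spread of its own groups. AUR1 read 178 ± 3.31 (SD) in siliques stage 4 and 146 ± 6.76 in siliques stage 5, a step with adjusted p = 0.34 (limma). These groups were picked as the highest of the gene and the next, so their gap is no support for a peak. Over the alternatives, the adjusted p (limma) of siliques stage 5 against 4 ran from 0.012 to 0.53 for AUR1 and from 0.0048 to 0.21 for PRL. For AUR1 the order was siliques stages 4, 5 and 3, then seeds stages 6, 7, 8, 10 and 9, and only the steps from seeds stage 6 to 7 (adjusted p = 0.0044, limma) and from 7 to 8 (adjusted p = 3.3e-05) passed. For PRL the order was siliques stages 4 and 5, seeds stage 6, siliques stage 3, and seeds stages 7, 8, 10 and 9. Its steps from siliques stage 3 to seeds stage 7 (adjusted p = 4.8e-05, limma) and from seeds stage 7 to 8 (adjusted p = 1.1e-05) passed. ICU2 ran through siliques stages 4, 3 and 5 and seeds stages 6, 7, 10, 8 and 9, and only the gap between seeds stages 7 and 10 passed (adjusted p = 0.0066, limma). Since ICU2 was tested only because of its highest group and its late readings cannot be told from background, this order is no support for a course. The order of AUR2 was siliques stages 3 and 4, seeds stages 8 and 6, siliques stage 5, and seeds stages 7, 10 and 9. Only its last steps passed, seeds stage 7 to 10 (adjusted p = 0.039, limma) and 10 to 9 (adjusted p = 0.016).

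Over the whole of seed development without the silique, from stage 6 to stage 10, AUR1, PRL and ICU2 fell and AUR2 did not reach a 2-fold change. AUR1 fell by 1.95 ± 0.18 (SE) on the log2 scale (adjusted p = 3.8e-10, limma, n = 3 arrays in each group). PRL fell by 1.70 ± 0.14 (adjusted p = 5.1e-11, limma) and ICU2 fell by 1.24 ± 0.23 (adjusted p = 4.6e-05). ICU2 was under the 40th percentile on every array of both stages and was tested only because of its highest group, siliques stage 4. Its fall is therefore no support for a course in seeds. The AUR2 difference was -0.40 ± 0.11 (adjusted p = 0.0024, limma), with a 95% interval of -0.64 to -0.17. All 3 arrays of stage 10 lay below those of stage 6 for each of the 4 genes, as for 36.9% of all probe sets tested. Of all probe sets 19.7% were called lower and 71.5% passed the adjusted p alone. The change of AUR1 stood at the 7.63th percentile of all changes tested, PRL at the 9.88th, ICU2 at the 15.5th and AUR2 at the 34.5th.

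These values depended on the scaling for the genes with the smaller changes. With each array centred on 9 reference genes, ICU2 differed by -0.95, under the 2-fold limit, and AUR2 by -0.11 (adjusted p = 0.39, limma), while AUR1 and PRL still changed by -1.66 and -1.41. That centring moved the median change of all probe sets from 0.02 to 0.31, so relative to the median the changes are similar, and it turned 2389 higher and 3346 lower calls into 3730 and 2483. With an offset 4 times larger, ICU2 differed by -0.54. A further fit left out the 6 arrays bright in the 25S control, a choice made after seeing the data. It leaves array B alone for seeds stage 10, itself at 933 in that control, so the spread comes from the other groups. AUR1 then fell by 2.28, PRL fell by 1.60 and ICU2 fell by 1.53, and AUR2 differed by -0.30.

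Taken step by step, the decline of PRL and AUR1 was spread over the stages from 6 to 8. From seeds stage 6 to 7, PRL differed by -0.77 ± 0.14 (adjusted p = 0.00016, limma) and AUR1 by -0.70 ± 0.18 (adjusted p = 0.0044), the 2.91th and 3.77th percentiles of all changes. ICU2 differed by -0.49 ± 0.23 (adjusted p = 0.14, limma) and AUR2 by -0.14 ± 0.11 (adjusted p = 0.41). None of the 4 genes reached 2-fold in this step, in which 3.5% of all probe sets were called in either direction and 24.5% passed the adjusted p alone. For each of the 4 genes, AUR2 included, all arrays of stage 7 were below those of stage 6, as for 26.4% of all probe sets.

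From seeds stage 7 to 8 PRL and AUR1 were lower again. AUR1 differed by -0.99 ± 0.18 (adjusted p = 3.3e-05, limma), just inside the 2-fold limit, PRL by -0.84 ± 0.14 (adjusted p = 1.1e-05) and ICU2 by -0.84 ± 0.23 (adjusted p = 0.0035). Every array of both stages had ICU2 under the 40th percentile, so its value is no support for a direction. AUR2 differed by 0.21 ± 0.11 (adjusted p = 0.12, limma), with a 95% interval of -0.02 to 0.44. None of the 4 was called, against 19.3% of all probe sets in either direction, and 58% passed the adjusted p alone. The call for AUR1 depended on single arrays: it changed by -1.11 without array A of seeds stage 8 and by -1.01 without array B, both past the limit. With no offset AUR1 fell by 1.15.

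From seeds stage 8 to 9 AUR2 differed by -0.86 ± 0.11 (adjusted p = 2.0e-06, limma), the 3.92th percentile of all changes. PRL differed by -0.43 ± 0.14 (adjusted p = 0.024, limma), AUR1 by -0.43 ± 0.18 (adjusted p = 0.071) and ICU2 by -0.16 ± 0.23 (adjusted p = 0.65). No gene of the 4 was called here, where 3.67% of all probe sets were and 28% passed the adjusted p alone, while without the 6 arrays bright in the 25S control, which leaves for seeds stage 8 only array B, its highest for AUR2, AUR2 differed by -1.01. From stage 9 to 10 AUR2 differed by 0.39 ± 0.11 (adjusted p = 0.016, limma), PRL by 0.34 ± 0.14 (adjusted p = 0.094), ICU2 by 0.25 ± 0.23 (adjusted p = 0.51) and AUR1 by 0.17 ± 0.18 (adjusted p = 0.54). None was called in that step, against 1.72% of all probe sets, and 19.5% passed the adjusted p alone. The sign for AUR1 rested on array A of seeds stage 9, without which it was -0.09, and that for ICU2 on array D of stage 10, without which it was -0.07.

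In whole siliques the 4 genes moved little, and PRL moved most. From stage 3 to 4 PRL differed by 0.51 ± 0.14 (adjusted p = 0.0029, limma), AUR1 by 0.28 ± 0.18 (adjusted p = 0.19), ICU2 by 0.24 ± 0.23 (adjusted p = 0.41) and AUR2 by -0.20 ± 0.11 (adjusted p = 0.14). For AUR1 and PRL every array of stage 4 was above every array of stage 3, as for 32.8% of all probe sets; for ICU2 the filter bears on this, since only its stage 4 arrays passed it. None of the 4 was called, against 18.9% of all, and 55.2% of all passed the adjusted p alone. From stage 4 to 5 the differences ran from -0.38 for PRL (adjusted p = 0.062, limma) to -0.20 for AUR2 (adjusted p = 0.26), with none called against 3.32% of all probe sets.

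Between siliques stages 3 and 5 AUR2 was the only 1 of the 4 to pass the adjusted p, with -0.40 ± 0.11 (adjusted p = 0.0034, limma), and it was not called. With the replicate block ICU2 was -1.06 (adjusted p = 0.049, limma) and called, though the arrays gave no sign of pairing by letter. PRL differed by 0.13, AUR1 by 0.00 and ICU2 by -0.09, while 21.3% of all probe sets were called and 59.4% passed the adjusted p alone. Siliques stage 5 and seeds stage 6 differ in the presence of the silique wall as well as in stage, and these cannot be told apart. Here AUR1 differed by -0.36 ± 0.18 (adjusted p = 0.10, limma), PRL by -0.10, ICU2 by -0.01 and AUR2 by 0.06, with none called against 11.6% of all probe sets.

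**Figure D2:**
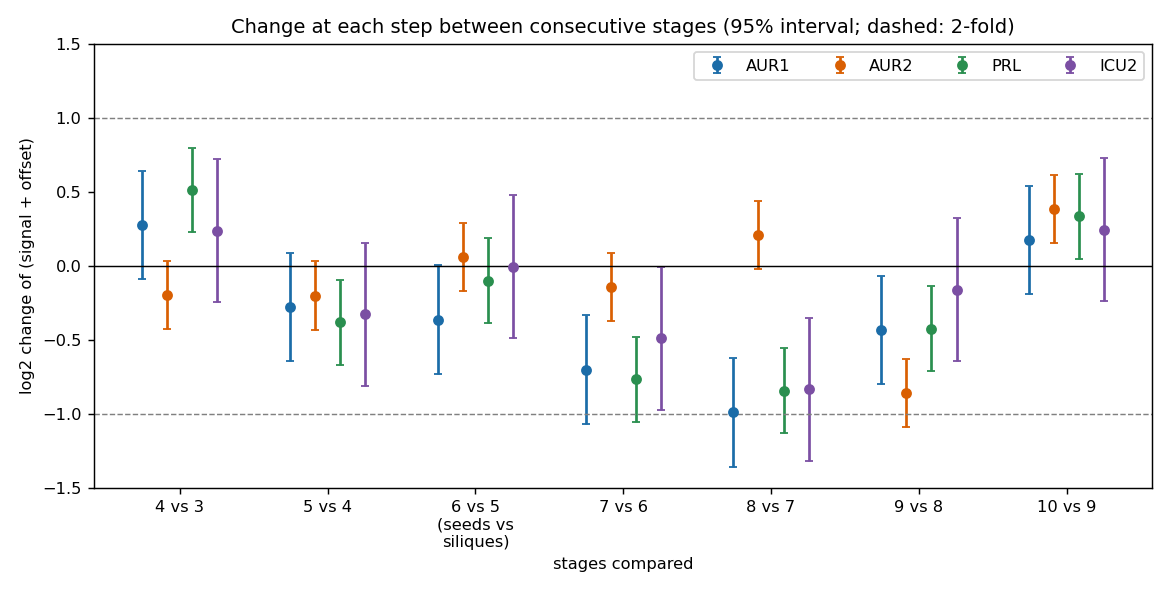
Change of each gene at each step between consecutive groups (log2 scale of signal + 6.97; points are limma estimates, bars their 95% intervals, dashed lines the 2-fold limit). AUR1 and PRL lie below 0 at seeds stage 7 against 6 and 8 against 7, and AUR2 reaches -0.86 at seeds stage 9 against 8.

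The changes of the alpha Aurora genes parted in seeds, and the difference of their changes was tested on each array. From seeds stage 6 to 10, AUR1 minus AUR2 was -1.55 ± 0.21 (adjusted p = 1.2e-07, limma) and AUR2 minus PRL was 1.30 ± 0.19 (adjusted p = 4.4e-08). Both passed in all 34 alternatives. AUR1 minus PRL was -0.25 ± 0.22 (adjusted p = 0.28, limma), with a 95% interval of -0.69 to 0.20 that still holds sizeable differences. Without the 6 arrays bright in the 25S control that difference was -0.69, but stage 10 is then array B alone, which had the lowest ratio of AUR1 to PRL of its group. AUR1 minus ICU2 was -0.71 ± 0.27 (adjusted p = 0.012, limma), but without array D of seeds stage 10 it was -0.50 and did not pass. It did not pass with quantile normalization (-0.54, adjusted p = 0.054), with the replicate block (-0.45, adjusted p = 0.11) or with only these groups in the fit (adjusted p = 0.085) either, and with no offset the sign turned to 0.30.

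The gap between the Auroras opened mainly from seeds stage 7 to 8. There AUR1 minus AUR2 was -1.20 ± 0.21 (adjusted p = 1.4e-05, limma) and AUR2 minus PRL was 1.05 ± 0.19 (adjusted p = 5.8e-06). From stage 6 to 7 AUR2 minus PRL was 0.63 ± 0.19 (adjusted p = 0.0035, limma), while AUR1 minus AUR2 was -0.56 ± 0.21 (adjusted p = 0.072). In siliques, from stage 3 to 4, the differences had the opposite sign: AUR2 minus PRL was -0.71 ± 0.19 (adjusted p = 0.0013, limma) and AUR1 minus AUR2 was 0.48 ± 0.21 (adjusted p = 0.062).

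Within arrays, the ratio of AUR1 to AUR2, set to 0 (log2) in siliques stage 3, was 0.48 ± 0.10 (SD, n = 3) in siliques stage 4 and -0.03 ± 0.17 in seeds stage 6. It was -0.59 ± 0.03 in seeds stage 7, -1.78 ± 0.41 in stage 8, -1.36 ± 0.49 in stage 9 and -1.57 ± 0.49 in stage 10. The last 3 stages overlapped with each other and lay below stage 7. The ratio of PRL to AUR2 went from 0.71 ± 0.18 in siliques stage 4 to -1.31 ± 0.41 in seeds stage 8. The ratio of AUR1 to PRL stayed between -0.64 and 0.00 in the group means. On array A of seeds stage 8, 1 of the 6 bright in the 25S control, AUR1, PRL and ICU2 had their highest reading of that group and AUR2 its lowest.

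**Figure D3:**
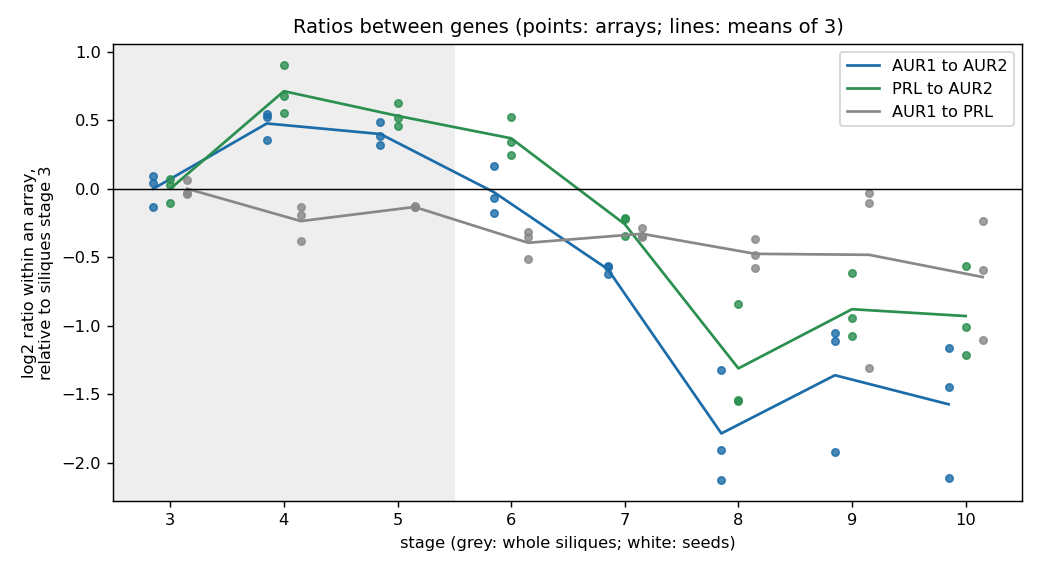
Ratios of signals on the same array (log2 of signal + 6.97, relative to the mean of siliques stage 3) by stage, 1 point per array and a line through the group means. AUR1 to AUR2 goes from 0.48 in siliques stage 4 to -1.78 in seeds stage 8, and the group means of AUR1 to PRL stay between -0.64 and 0.00, with single arrays from -1.31 to 0.06.

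Across the 8 group means of log2 values, AUR1, PRL and ICU2 correlated with each other at Pearson's r of 0.992 to 0.994, and AUR2 with these 3 at 0.722 to 0.751. These points share their arrays, and their scaling. ICU2 was tested only because of its highest group and its late readings cannot be told from background, so its correlations are no support for a shared course. Within groups the deviations of the 24 arrays from their group means correlated at -0.463 to 0.348 over the 6 pairs of genes, so the likeness lies in the stage means and not in single arrays.

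Other genes with a like course were taken from 6573 probe sets with 1 gene and a range of group means of at least 1 (log2). Nearest to AUR1 were AT2G04650, FUG1, which encodes a plastid translation initiation factor, and AT5G16250, each at r = 0.995 over the 8 group means. PRL was nearest to AT2G38550 (r = 0.996), ICU2 (0.994) and AUR1 (0.993). ICU2 was nearest to AT2G36200 (0.997), AT5G16250 (0.995) and PRL (0.994). The limit just given for ICU2 holds for its places here too. AUR2 had no neighbour as close, the nearest being AT3G07550 (0.970), AT3G57480 (0.958) and EMB2786 (0.943). The same measure over the 24 arrays gave other names except AT3G57480 for AUR2: AT4G25870, NdhS and TBL25 for AUR1, AT5G16250, AT5G01200 and UGT73B1 for PRL, AT2G01070, AT4G17520 and AT1G54220 for ICU2, and AT2G20790, AT3G57480 and AT5G64880 for AUR2.

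Of 94 listed genes of DNA replication, mitosis and the cell cycle, 16 had a probe set of their own, the 4 genes above included. Of the other 12, 11 were tested. WYR, the inner centromere protein that works with Aurora kinases, stayed under the filter on every array, at most 24.1. Cyclins, cyclin dependent kinases and the MCM2 to MCM6 partners of PRL were not analysed here. From seeds stage 6 to 10, 4 of the 11 fell and none rose, where 19.7% of all probe sets were called lower and 14.1% higher. The median change of the 11 was -0.65, and that of all probe sets 0.02. TOPII, the topoisomerase that untangles copied DNA, fell by 3.32 ± 0.17 (adjusted p = 5.4e-15, limma), from a signal of 77.2 ± 8.49 (SD, n = 3) to 1.46 ± 0.524. BUBR1 and BUB3.1, of the checkpoint that delays mitosis until chromosomes are attached, changed by -1.89 ± 0.21 (adjusted p = 1.1e-08, limma) and -1.09 ± 0.14 (adjusted p = 1.8e-07). AUR3, the beta Aurora, fell by 1.30 ± 0.31 (adjusted p = 0.00076, limma), from 40.1 ± 2.20 to 13.9 ± 9.79.

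The other 7 were not called in that comparison. POLA3, a primase subunit that works with ICU2, differed by -0.60 (adjusted p = 0.043, limma) and POLD3, a subunit of DNA polymerase delta, by -0.65 (adjusted p = 0.0013). AT4G39630 differed by -0.73 (adjusted p = 0.0043, limma) and HTR12, the centromeric histone H3, by -0.20 (adjusted p = 0.54). In the other direction, AT1G07270, listed under replication origin licensing, differed by 0.72 (adjusted p = 0.0067, limma). AT5G26680, listed under the replication fork, differed by 0.61 (adjusted p = 0.0011, limma). SIM (SIAMESE), an inhibitor of cyclin dependent kinases, differed by 0.79 (adjusted p = 9.0e-10, limma). SIM read 330.4 ± 5.94 (SD, n = 3) in seeds stage 6 and 578 ± 36.6 in stage 10, opposite in sign to AUR1 and PRL. BUBR1 passed the filter on 7 arrays, among them all 3 of seeds stage 6 and none of stages 8 to 10, and AT1G07270 on 6, all of them in seeds stages 8 to 10. TOPII, AUR3 and POLD3 passed on 16 arrays each, among them all 3 of seeds stage 6 and none of stage 10. All these genes were thus tested through groups where they are high, and their values are no support for a direction. The count of 4 and the median change given above rest partly on them, while BUB3.1, AT5G26680 and SIM passed on all 24 arrays. HTR12 passed on 5 arrays. The count of 4 was 1 with an offset 4 times larger (TOPII), and 3 with quantile scaling or reference centring (TOPII, AUR3 and BUBR1); with reference centring AT1G07270 and SIM were called higher.

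At the other steps fewer of the 11 were called. From siliques stage 3 to 4, where 9.4% of all probe sets were called higher, 1 of the 11 was: TOPII rose by 1.19, from 95.5 ± 14.6 to 226 ± 8.50, into the stage where PRL, AUR1 and ICU2 were highest. From seeds stage 7 to 8, where 11.2% of all were called lower, 3 of the 11 were: TOPII changed by -1.40, BUBR1 by -1.22 and AUR3 by -1.16. That count was 0 with an offset 4 times larger, 1 with reference centring and 4 with no offset. TOPII, BUBR1 and AUR3 each passed the filter on more arrays of stage 7 than of stage 8, so these calls are no support for a direction either. None of the 11 was called in siliques stage 5 against 3 or in seeds stage 6 against siliques stage 5, where TOPII differed by 0.59 and -0.87 and SIM by -0.13 and 0.66.

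**Figure D4:**
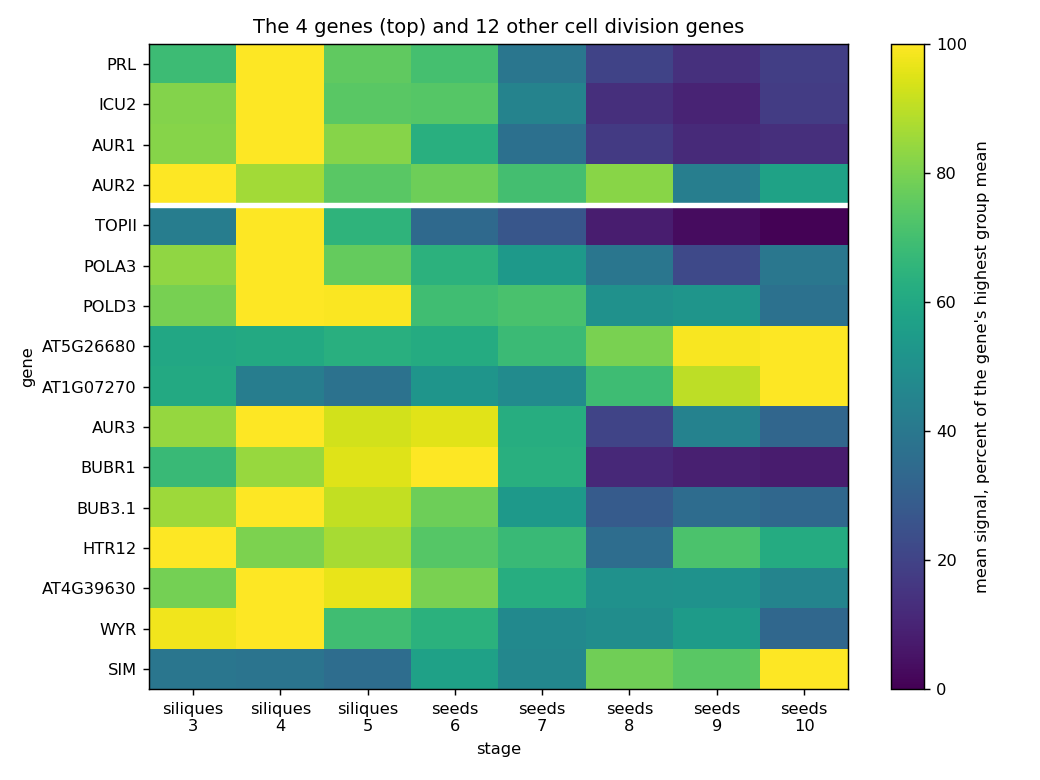
Mean signal of the 4 genes (above the white line) and of 12 other cell division genes in each group, coloured from 0 to 100 as a percent of the gene's own highest group mean, by stage; WYR was measured but not tested. TOPII and BUBR1 are at 11.4% or less in seeds stages 8 to 10, AUR3 is between 20.3% and 44.5% there, and SIM, AT1G07270 and AT5G26680 are highest in stage 10.

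Markers of other parts of the seed and pod moved over the same stages, and their part in the results on these 4 genes was not tested. Late embryogenesis markers (7 measured of 9) summed to signals of 1293 to 1483 in seeds stage 6 and 42157 to 47935 in stage 10, and all 7 rose. Green tissue markers (7 of 7) summed to 8389 to 9447 in stage 6 and 989 to 1034 in stage 10, and all 7 fell, with a median of -3.51. Seed reserve markers (5 of 9) lay between 25.8 and 41.3 at siliques stage 3 and between 39785 and 46244 at seeds stage 10. Silique wall markers (3 of 7) lay between 322 and 349 at siliques stage 5 and between 161 and 168 at seeds stage 6, where ALC and ADPG1 differed by -1.96 and -2.45 but YAB3 by 0.85 in the other direction. Pollen markers (3 of 4) went from between 1681 and 1699 in siliques stage 3 to between 232 and 257 in stage 4, where PRL, AUR1 and ICU2 were highest. Endosperm markers (4 of 9) reached 117 to 145 at siliques stage 3, 31.3 to 42.2 in seeds stage 6 and 62.1 to 70.8 in stage 10. Most of the first sum was MPC, whose mean was 85.1 at siliques stage 3 against 12.8 at seeds stage 6. IKU2 had means of 1.92 and 9.41 at these stages, and AGL62 and IKU2 stayed under the filter and were not tested.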

How the data were processed

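Per the labels, biotin-labelled total RNA of each sample went on 1 ATH1 array. The deposited values are signal intensities made by the authors with MAS5, per the submitters' processing notes; the sources used here give no version. The trimmed mean (2nd to 98th percentile) of each array lay between 100.008 and 100.01, so a value is relative to the rest of its array. The number of arrays limits the precision. The 4 genes, the lists and the rules were chosen with earlier results of these data known.

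Control probe sets (64) were left out. Probe sets above the 40th percentile of their array on at least 3 arrays were tested (16967 of 22810), on the scale log2(signal + 6.97), where 6.97 is the median of the arrays' 20th percentiles. limma 3.58.1 in R 4.3.3 fitted 1 mean per group to all 24 arrays (16 residual degrees of freedom, eBayes with trend), with Benjamini-Hochberg adjustment over all tested probe sets. Differences between genes used the same fit after subtracting 1 gene's log2 value on each array. The model was tested on simulated data. Tables were made with pandas 2.3.3 and figures with matplotlib 3.10.9. Named genes were the 4 themselves, the 3 most correlated single-gene probe sets of each, measured complex partners, and from each cell division list the genes of largest change; the other listed genes were named after their values were seen. Alternatives were other offsets, scalings and filters, no variance trend, the title letter as a block, 2 groups alone, and leaving out each array. The arrays gave no sign of pairing by letter, which does not exclude it: deviations of 45 same-letter pairs correlated at -0.05 to 0.10 and those of 207 others at -0.11 to 0.15. Gene symbols are those of the array annotation; sequences and positions were not used here.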

Additional observations from a re-analysis of the deposited data

How the results depend on the processing

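The falls of AUR1 and PRL from seeds stage 6 to 10 passed in all 34 alternatives and that of ICU2 in 32, the exceptions being the larger offset (-0.54) and reference gene centring (-0.95). For ICU2 the alternatives use the same readings under the filter, so its count is no support for a fall. Leaving out 1 array at a time gave -2.06 to -1.75 for AUR1, -1.78 to -1.61 for PRL, -1.56 to -1.07 for ICU2 and -0.47 to -0.29 for AUR2. Of 1224 repeated values of single genes 1196 kept direction and side of the threshold, and of 612 differences between genes 587 did. The low signal of ICU2 limits its changes in late seeds, and 3 arrays per group limit all results. The causes of the changes below were not tested, except that a larger offset shrinks changes by construction.

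With the offset 4 times larger, all probe sets called numbered 2112 in place of 3200 (siliques stage 4 against 3), 312 in place of 564 (5 against 4), 1200 in place of 1972 (seeds stage 6 against siliques stage 5), 332 in place of 594 (seeds stage 7 against 6, with 272 higher and 60 lower in place of 412 and 182), 2039 in place of 3275 (8 against 7), 232 in place of 623 (9 against 8) and 92 in place of 291 (10 against 9). With no offset they were 1009 in seeds stage 9 against 8 and 614 in 10 against 9, and without the 6 arrays bright in the 25S control, which leaves 1 array in seeds stages 8 and 10 each, 520 in 10 against 9. Reference centring turned 1367 higher and 1908 lower calls of seeds stage 8 against 7 into 2190 and 1224, with a median of 0.24 in place of -0.02. Of the 4 genes, called ones became 2 with no offset (AUR1, and ICU2 at readings that cannot be told from background) and 0 to 1 without single arrays in seeds stage 8 against 7, 1 without the 6 arrays in 9 against 8 (AUR2, with 1 array left for stage 8), and 1 with the replicate block in siliques stage 5 against 3 (ICU2, -1.06), each in place of 0.

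Signs turned only for changes that had not passed, apart from AUR1 minus ICU2 over seeds stages 6 to 10. With the replicate block, where only letter D, in seeds stage 10, links letters D, E and F to the others, AUR1 was -0.017 and ICU2 -0.73 in siliques stage 4 against 3, AUR1 -0.29 in 5 against 3, ICU2 0.96 in seeds stage 6 against siliques stage 5 and -0.12 in seeds stage 10 against 9. Under the block AUR1 minus PRL was 0.39 and AUR2 minus ICU2 -0.75 in seeds stage 6 against siliques stage 5, and AUR2 minus ICU2 0.51 in siliques stage 5 against 3. AUR1 in siliques stage 5 against 3 was -0.0023 with quantile normalization, -0.0062 with the 75th percentile, -0.022 with reference centring and -0.036 to 0.022 without single arrays. With quantile normalization ICU2 was 0.0079 in that comparison and 0.018 in seeds stage 6 against siliques stage 5 (-0.095 to 0.039 without single arrays), and AUR1 minus ICU2 was -0.010 in siliques stage 5 against 3. In seeds stage 10 against 9, AUR1 was -0.094 to 0.39 and ICU2 -0.071 to 0.50 without single arrays, and -0.23 and -0.050 without the 6 arrays. With no offset AUR1 minus ICU2 was 0.30 and PRL minus ICU2 0.61 in seeds stage 10 against 6.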
